A study of Mus musculus with 6 samples.

Results

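Oxytocin, vasopressin and corticotropin-releasing hormone (CRH) signalling in mouse hypothalamus was followed through 9 genes chosen by name. They were the peptide genes Oxt, Avp, Crh and Ucn3, the receptor genes Oxtr, Avpr1a, Crhr1 and Crhr2, and Crhbp, which encodes the CRH-binding protein. These were 9 of the 24513 genes counted, and all 9 were among the 15894 genes that passed the filter on low counts and were tested. Whole hypothalamus gave 3 NS-DADm and 3 wild-type (WT) RNA libraries, from C57BL/6 mice 3 to 4 months old, and the labels name no treatment. The labels number the libraries of each genotype 1 to 3 but do not say that each came from a separate mouse, so p-values measure the spread between these libraries. From general knowledge of this mouse line, and not from the labels, NS-DADm mice carry mutations in every cell in the deacetylase-activating domain of corepressors that nuclear receptors recruit, NCOR1 among them, the stretch through which they bind and switch on the histone deacetylase HDAC3. The comparison asks how hypothalamic transcript levels differ between mice with this mutated domain and WT mice.

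Oxytocin and vasopressin are small cyclic peptides made by large neurons of the paraventricular and supraoptic nuclei, which send axons to the posterior pituitary and release the peptides into blood. Oxytocin acts in milk ejection, birth and social behaviour, while vasopressin acts on the kidney, on blood vessels and in the brain, and it is also made in the suprachiasmatic nucleus. CRH is made by smaller paraventricular neurons and drives release of the stress hormone ACTH from the anterior pituitary. The receptors are all coupled to G proteins, through Gq for OXTR and AVPR1A and mainly through Gs for CRHR1 and CRHR2.

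Oxt and Avp lie side by side on chromosome 2, in tail-to-tail orientation with 3565 bases between their ends. Oxt spans 130576173 to 130577054 on the plus strand and Avp 130580620 to 130582554 on the minus strand (GRCm38, GENCODE). The 250 bases before the RefSeq start of each gene are shown because these genes have the highest levels of the 9 and a shared locus, and because these corepressors reach DNA through nuclear receptors. Capitals mark the nuclear receptor recognition hexamer AGGTCA, searched on both strands, where it reads TGACCT on the printed strand if it lies on the other. The Oxt window is chr2:130575919-130576168 on the plus strand and the Avp window is chr2:130582589-130582838 on the minus strand (RefSeq, GRCm38.p6).
Oxt: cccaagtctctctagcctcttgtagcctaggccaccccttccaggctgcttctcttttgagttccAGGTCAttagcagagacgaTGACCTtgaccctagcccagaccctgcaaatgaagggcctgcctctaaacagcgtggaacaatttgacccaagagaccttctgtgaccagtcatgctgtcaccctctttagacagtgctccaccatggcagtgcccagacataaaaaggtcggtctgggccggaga
Avp: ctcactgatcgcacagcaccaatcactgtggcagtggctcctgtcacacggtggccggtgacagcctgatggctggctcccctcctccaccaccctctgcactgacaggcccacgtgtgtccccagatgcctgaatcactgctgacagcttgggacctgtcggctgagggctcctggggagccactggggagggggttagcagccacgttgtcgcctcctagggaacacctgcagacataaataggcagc
The Oxt window held the hexamer at 2 places, which begin 185 and 166 bases before the start, and the Avp window held it at 0. Of the 9 genes, 8 had a window in the RefSeq table and 3 of these held the hexamer, namely Oxt, Oxtr and Crhbp, whereas 14.0% of all 32851 windows of this length held it. The cAMP response element TGACGTCA, which reads the same on both strands, was in 0 of the 8 windows and in 1.55% of all windows. A match describes these letters only and does not show binding.

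The libraries held 24.2 M to 27.5 M reads on genes in NS-DADm mice and 26.5 M to 27.6 M in WT mice (M, 1e6 reads). Markers that define hypothalamus, 10 in number, had reads in every library, and their summed level was 306 to 390 normalised counts per 1e6 reads (CPM) in NS-DADm libraries and 268 to 380 in WT libraries. Some libraries stood apart in markers of neighbouring tissue. The 12 markers of anterior pituitary summed to 203, 2020 and 201 CPM in NS-DADm 1, 2 and 3, against 40.6, 56.3 and 112 CPM in WT 1, 2 and 3. Gh, for growth hormone, made up 167, 1810 and 172 CPM of the NS-DADm sums and 30.5, 40.6 and 96 CPM of the WT sums, while Tbx19, a corticotroph factor, was at 1.06 to 1.45 CPM in NS-DADm libraries and 0.768 to 1.46 CPM in WT libraries. Of the 12, 8 were tested, all 8 had fitted values above 0 and 0 were called, and Gnrhr was at 0 in WT 2. The 15 markers of thalamus, none at 0, summed to 897 to 994 CPM in NS-DADm libraries, against 1230 to 1750 CPM in WT libraries, with 15 of 15 fitted below 0 and 6 called lower. Telencephalon markers summed to 23.1 to 33.6 CPM in NS-DADm libraries, against 22.9 to 31.1 CPM in WT libraries, so these overlapped. Of cell types, microglia markers summed to 134 to 141 CPM in NS-DADm libraries and 155 to 160 CPM in WT libraries. Mature oligodendrocyte markers summed to 3840 to 4410 against 4490 to 4830 CPM. In each of these lists 5 of 5 were fitted below 0 and 0 were called. Pan-neuronal markers summed to 3760 to 3840 against 3860 to 4180 CPM. Astrocyte and tanycyte markers overlapped, at 1240 to 1270 against 1190 to 1260 CPM. The part of these tissues and cell types in the results below was not tested. Fits without single libraries and with the mean level of thalamus markers as a covariate are given beside the results. That covariate was lower in every NS-DADm library than in every WT library. With 6 libraries, it therefore cannot be told apart from genotype. Among the genes of the mutated complex, Ncor1 and Hdac3 were not called different (edgeR, Benjamini-Hochberg (BH) adjusted p = 0.91 and 0.43), and these levels do not check the genotype, since changed amino acids can leave the amount of a transcript as it was.

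**Figure D1:**
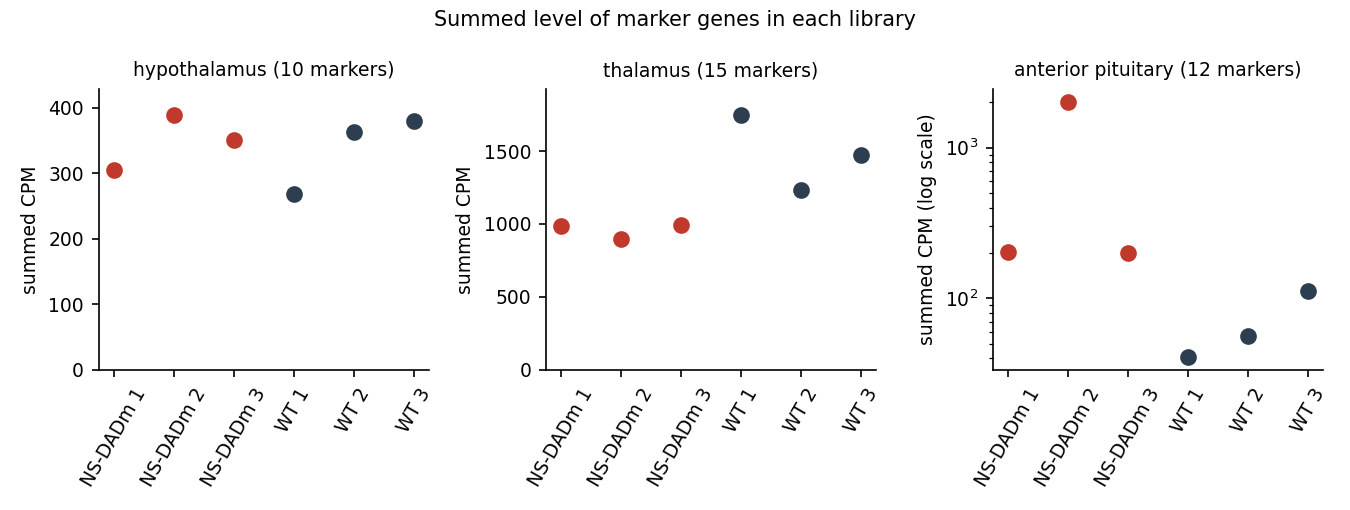
Summed CPM of marker genes for hypothalamus, thalamus and anterior pituitary in each library, with NS-DADm libraries in red and WT libraries in dark blue; the pituitary axis is a log scale. NS-DADm 2 stands at 2020 CPM of pituitary markers, and all 3 NS-DADm libraries lie at 994 CPM or below in thalamus markers, where WT libraries lie at 1230 CPM or above.

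None of the 9 genes was called different between NS-DADm and WT hypothalamus at an adjusted p under 0.05, where 0.654% of all tested genes were called (0.0818% higher and 0.573% lower in NS-DADm). At an unadjusted p under 0.05 there was 1 of 9, Oxt, beside 10.9% of all tested genes (4.4% higher and 6.46% lower). The groups overlapped in all 9 genes, whereas they did not overlap in 16.8% of tested genes. Fitted differences were above 0 for 5 genes and below 0 for 4, including Crhr1 and Crhbp, which round to 0.00, with a median log2 fold change of 0.00 over the 9 and 0.004 over all tested genes. The DESeq2 test called 1.77% of all genes, the fit with no count filter 0.993%, the fit with thalamus markers as a covariate 0.0818%, the fit with the replicate number as a block 2.57% and the fit without WT 1 and NS-DADm 2 together 3.68%, and each called 0 of the 9. Because whole tissue was sequenced, fewer cells of a type and less RNA per cell cannot be told apart in any of these values.

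Oxt, which encodes the oxytocin precursor, was the gene of the 9 with the smallest p. It measured 135, 157 and 158 CPM in NS-DADm 1, 2 and 3, against 146, 126 and 122 CPM in WT 1, 2 and 3. NS-DADm 2 and 3 lay above every WT library, but NS-DADm 1 lay below WT 1. The means were 150 ± 13 CPM in NS-DADm libraries and 131 ± 13 CPM in WT libraries (SD, n = 3 each), a log2 fold change of 0.19 ± 0.08 SE with a 95% interval of 0.02 to 0.37 (edgeR, BH adjusted p = 0.40). Without WT 1 the value was called, at a log2 fold change of 0.28 (edgeR, BH adjusted p = 0.047), in a fit that called 1.95% of all genes. Without WT 1 and NS-DADm 2, the libraries highest in thalamus and in pituitary markers, it was 0.24 (edgeR, BH adjusted p = 0.066). Over the 6 fits that leave out a library each, the adjusted p was 0.047 to 0.84 (edgeR).

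Avp, which encodes the vasopressin precursor, measured 114, 144 and 153 CPM in NS-DADm 1, 2 and 3, against 150, 133 and 115 CPM in WT 1, 2 and 3. The groups covered nearly the same range. The log2 fold change was 0.05 ± 0.14 SE, with a 95% interval of -0.28 to 0.38 (edgeR, BH adjusted p = 0.95). It was -0.04 without NS-DADm 3 and also without WT 3, so its sign depends on single libraries. The spread between libraries exceeded counting error in both genes, with a coefficient of variation for Avp of 14.6% in NS-DADm and 12.8% in WT, where counting error alone gives 1.67% in each group.

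The ratio of Oxt to Avp reads within a library does not depend on how libraries are scaled. It was 1.18, 1.09 and 1.03 in NS-DADm 1, 2 and 3, against 0.972, 0.947 and 1.06 in WT 1, 2 and 3. NS-DADm 3 lay below WT 3, so the groups overlapped. The mean log2 ratio was 0.14 ± 0.10 in NS-DADm and -0.01 ± 0.08 in WT (SD, n = 3 each), a difference of 0.15. This is given with no test, and it was 0.10 to 0.20 with each library left out in turn.

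Crh, which encodes the peptide at the head of the stress axis, was read 105 to 168 times per library in NS-DADm and 133 to 148 times in WT. It measured 4.30, 6.08 and 4.15 CPM in NS-DADm 1, 2 and 3, against 5.41, 4.86 and 5.08 CPM in WT 1, 2 and 3. NS-DADm 2 was the highest of the 6 libraries and the other NS-DADm libraries were the lowest, so WT lay between them. The log2 fold change was -0.08 ± 0.15 SE with a 95% interval of -0.40 to 0.25 (edgeR, BH adjusted p = 0.92). It was -0.28 without NS-DADm 2, the library high in pituitary markers, and 0.03 without NS-DADm 3.

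Ucn3, which encodes urocortin 3, a peptide of the CRH family that binds CRHR2 in preference to CRHR1, had the fewest reads of the 9 genes, 57 to 94 per library in NS-DADm and 55 to 77 in WT. It measured 3.85, 3.22 and 2.17 CPM in NS-DADm 1, 2 and 3, against 2.01, 2.34 and 2.92 CPM in WT 1, 2 and 3. NS-DADm 1 and 2 lay above every WT library and NS-DADm 3 lay below WT 2 and WT 3. Its log2 fold change was 0.34 ± 0.21 SE, with the widest 95% interval of the 9 at -0.12 to 0.81 (edgeR, BH adjusted p = 0.63). It was 0.16 without NS-DADm 1, 0.54 without NS-DADm 3 and 0.18 with the thalamus marker covariate. Counting error alone gives a coefficient of variation of 11.2% in NS-DADm and 12.4% in WT at this depth, and 27.6% and 19.0% were measured.

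**Figure D2:**
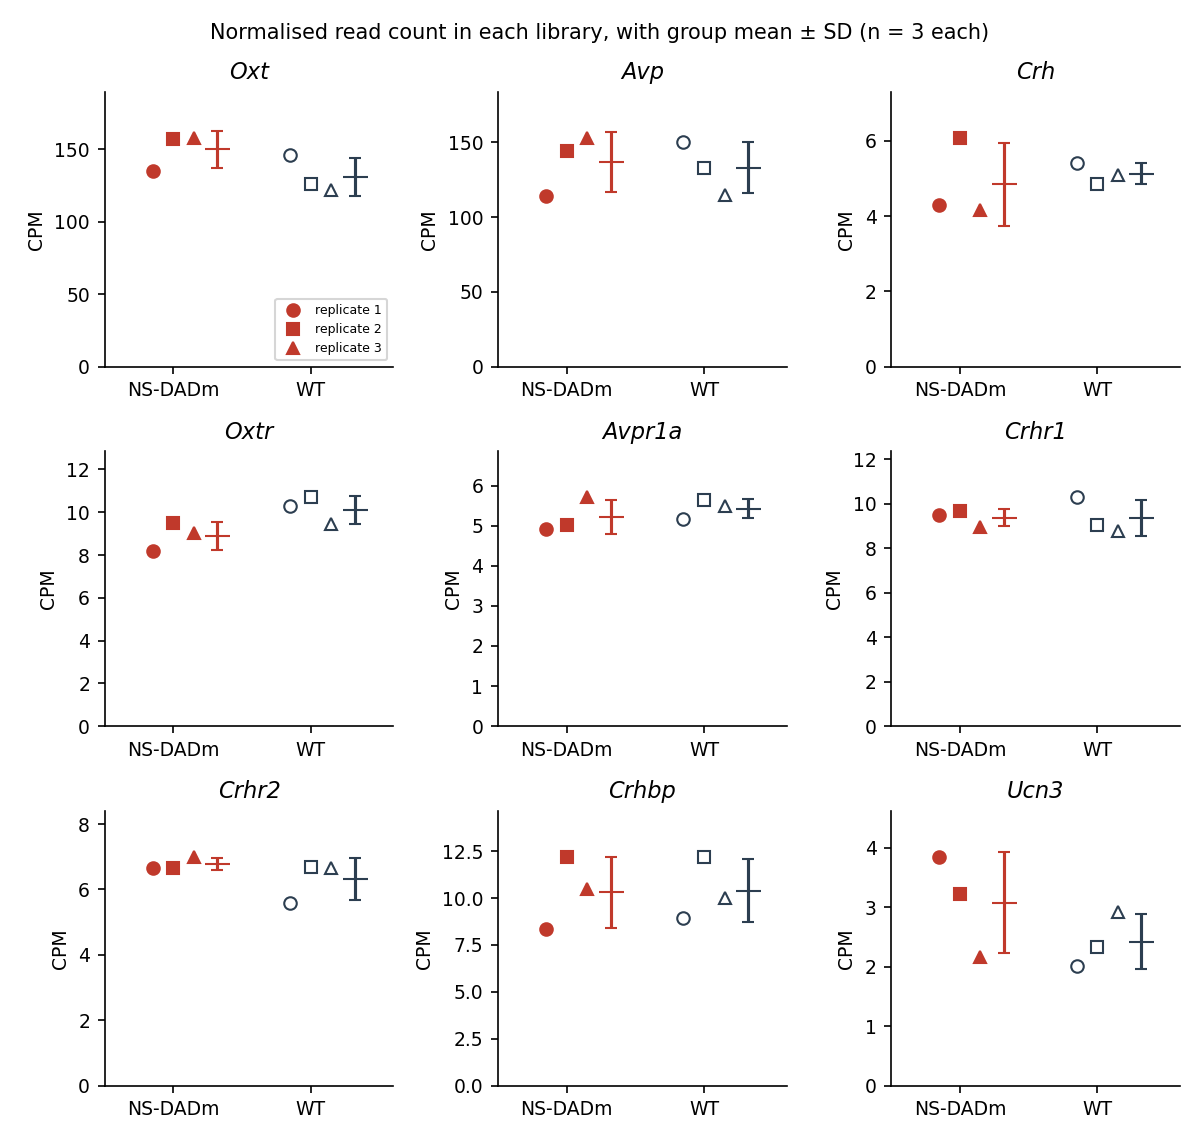
CPM of each of the 9 genes (vertical axes, from 0) in NS-DADm libraries on the left and WT libraries on the right of each panel; circle, square and triangle are replicates 1, 2 and 3, and bars are the mean ± SD of 3 libraries. The groups overlap in every panel, and Oxt stands at 135 to 158 CPM in NS-DADm against 122 to 146 CPM in WT.

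Of the receptors, Oxtr, which binds oxytocin, had the lowest fitted value. It measured 8.18, 9.48 and 9.01 CPM in NS-DADm 1, 2 and 3, against 10.3, 10.7 and 9.43 CPM in WT 1, 2 and 3. Only NS-DADm 2 reached above a WT library, and it exceeded WT 3 by less than 0.1 CPM. The means were 8.89 ± 0.66 CPM in NS-DADm libraries and 10.1 ± 0.64 CPM in WT libraries (SD, n = 3 each), a log2 fold change of -0.19 ± 0.10 SE with a 95% interval of -0.40 to 0.02 (edgeR, BH adjusted p = 0.52). The value stayed below 0 under each of the 16 alternatives fitted, between -0.34 and -0.13.

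Avpr1a, the main vasopressin receptor of the brain, measured 4.91 to 5.71 CPM in NS-DADm libraries and 5.16 to 5.63 CPM in WT libraries. Its log2 fold change was -0.06 ± 0.12 SE, with a 95% interval of -0.31 to 0.19 (edgeR, BH adjusted p = 0.92). Avpr1a lies within the antisense gene Gm48877 on the opposite strand, and no source used here gives the strand setting of the counting, so reads of the pair cannot be told apart.

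Crhr1, through which CRH acts on pituitary corticotroph cells and on brain neurons, measured 9.49, 9.70 and 8.94 CPM in NS-DADm 1, 2 and 3, against 10.3, 9.03 and 8.79 CPM in WT 1, 2 and 3. The means were nearly equal, 9.38 ± 0.39 CPM in NS-DADm libraries and 9.36 ± 0.80 CPM in WT libraries (SD, n = 3 each), and the 95% interval of the log2 fold change was -0.21 to 0.21. The library with the most pituitary marker reads, NS-DADm 2, was within the WT range for this receptor. A part of pituitary tissue in these values was not tested. Crhr2, the receptor for the urocortins, measured 6.66 to 7.00 CPM in NS-DADm libraries and 5.59 to 6.69 CPM in WT libraries, with a log2 fold change of 0.10 and a 95% interval of -0.14 to 0.34 (edgeR, BH adjusted p = 0.82). Here WT 1 was the low library and the other 5 lay close together. Crhr1 reads were 1.28 to 1.46 times those of Crhr2 in NS-DADm libraries and 1.32 to 1.84 times in WT libraries.

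Crhbp, whose product binds CRH and keeps it from its receptors, was read 204, 338 and 275 times in NS-DADm 1, 2 and 3, against 244, 334 and 264 times in WT 1, 2 and 3. In CPM it measured 8.35 to 12.2 in NS-DADm libraries and 8.92 to 12.2 in WT libraries. The lowest and highest libraries of each group nearly matched. The log2 fold change was 0.00, and its 95% interval of -0.33 to 0.33 spans a fold of 0.795 to 1.26. With the mean level of the thalamus markers as a covariate it was -0.76, short of the threshold (edgeR, BH adjusted p = 0.32). That covariate separates the groups fully, at a mean log2 CPM of 4.90 to 5.18 in NS-DADm and 5.69 to 6.42 in WT.

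**Figure D3:**
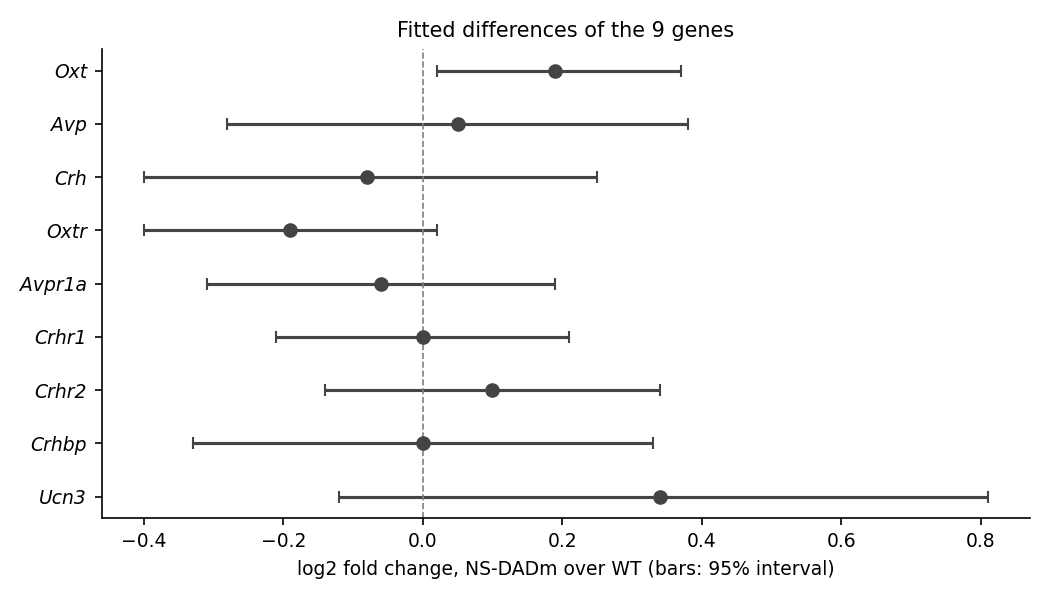
Fitted log2 fold change of NS-DADm over WT for the 9 genes (horizontal axis), with 95% intervals as bars. The intervals of 8 genes cross 0, and that of Oxt runs from 0.02 to 0.37 without passing the threshold after adjustment over all genes.

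**Figure D4:**
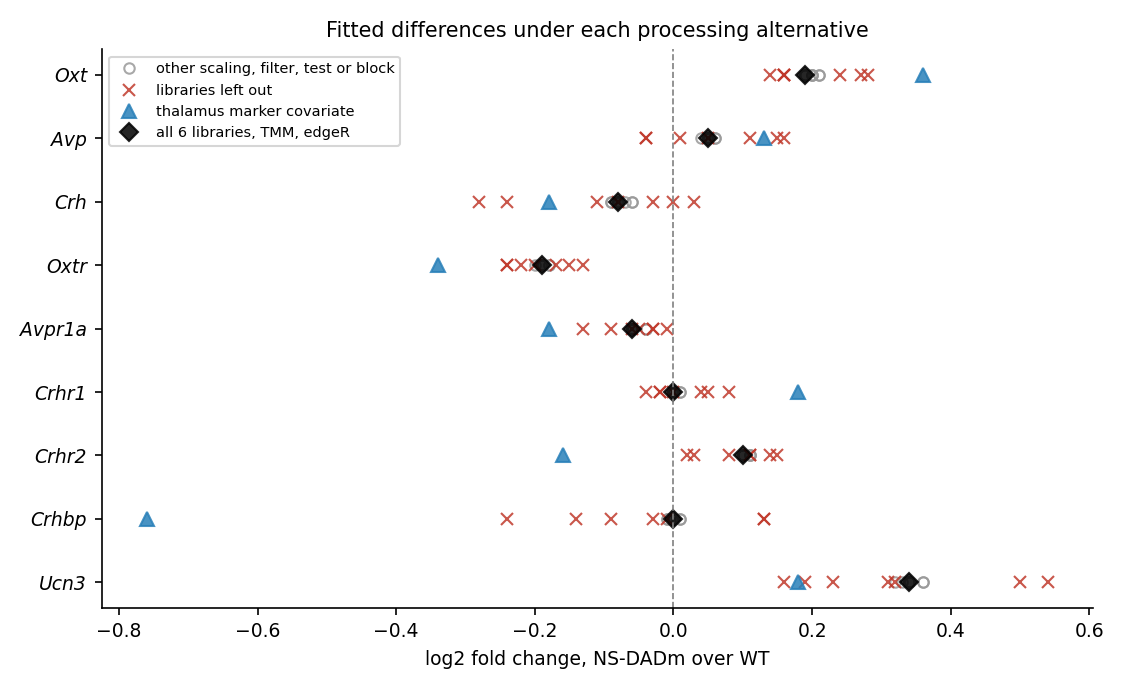
Fitted log2 fold change of NS-DADm over WT for the 9 genes (horizontal axis) in the fit of all 6 libraries, with libraries left out, with the thalamus marker covariate and with other scaling, filter, test or block. Oxt and Ucn3 stay above 0 and Oxtr and Avpr1a below 0 under all 16 alternatives, while Avp and Crh cross 0 when single libraries are left out and Crhr2 does with the covariate. Crhr1 and Crhbp lie on both sides of 0, from -0.04 to 0.18 and from -0.76 to 0.13.

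Levels can be compared between genes only per length, here as CPM per kilobase of merged exons. Oxt and Avp stood far above the rest, at means of 280 and 238 in NS-DADm and 244 and 230 in WT, and their libraries overlapped in both groups. Crhbp came next, at 5.75 in NS-DADm and 5.76 in WT, clear of its neighbours in both. Crhr1 and Crh followed at 3.81 and 3.67 in NS-DADm and 3.81 and 3.88 in WT, and overlapped each other. Ucn3, Avpr1a and Oxtr were at 2.08, 1.95 and 1.86 in NS-DADm and at 1.64, 2.03 and 2.12 in WT, with neighbours in each order overlapping. Crhr2 was last in both groups, at 1.32 in NS-DADm and 1.23 in WT, below every library of the gene above it.

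Other genes of these systems were read from 10 lists, of 71 genes in the files and 67 tested. None was called different over all genes tested, in either direction. At an unadjusted p under 0.05 there were 15 of 67, 8 higher and 7 lower in NS-DADm, which is 22.4% beside 10.9% of all tested genes. The lists were chosen with earlier results of these data known, so this share is no test of them. The median log2 fold change was 0.02 over the 67, and 36 were above 0 and 31 below.

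Some receptors and peptides of the same families were hardly read. Avpr1b, the vasopressin receptor of pituitary corticotrophs, had 0 to 2 reads per NS-DADm library and 1 to 3 per WT library, and Avpr2, the kidney receptor, had 2 to 7 and 6 to 9. Ucn had 0 to 3 reads in each group, and Ucn2 had 1 to 7 in NS-DADm and 1 to 3 in WT. These 4 were not tested. Lnpep, an aminopeptidase that degrades both peptides, and Cd38, which is needed for oxytocin release in mice, were not called (log2 fold changes 0.12 ± 0.21 and -0.02 ± 0.14 SE; edgeR, BH adjusted p = 0.91 and 0.98).

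Transcription factors that form paraventricular and supraoptic neurons had fitted values above 0 in 4 of 4, with a median log2 fold change of 0.13, and 0 were called. Otp measured 18.2, 21.5 and 18.0 CPM in NS-DADm 1, 2 and 3, against 16.2, 17.3 and 17.0 CPM in WT 1, 2 and 3, so its groups did not overlap, as in 7.86% of tested genes in this direction. Its log2 fold change was 0.19 ± 0.08 SE (edgeR, BH adjusted p = 0.43). Sim1, picked after its values were seen, was at 22.2 to 28.2 CPM in NS-DADm libraries and 18.4 to 26.1 CPM in WT libraries, and Arnt2, its partner in DNA binding, had a log2 fold change of 0.09 ± 0.06 SE. With the thalamus marker covariate these values were below 0, at -0.05 for Otp, -0.44 for Sim1 and -0.18 for Arnt2, none of them called.

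Enzymes and proteins of the secretory granule, which cut the precursors into peptides and store them, held the gene nearest to the threshold. Pcsk2, a proprotein convertase, measured 265, 274 and 281 CPM in NS-DADm 1, 2 and 3, against 338, 304 and 326 CPM in WT 1, 2 and 3. Every NS-DADm library lay below every WT library, as in 8.93% of tested genes in this direction. The log2 fold change was -0.24 ± 0.05 SE (edgeR, BH adjusted p = 0.054), and the gene was called without WT 1, without WT 2, with no count filter and with DESeq2 (BH adjusted p = 0.035, 0.021, 0.018 and 0.0031), the fit without WT 2 calling 1.64% of all genes. It was not called with any of the other 4 libraries left out (edgeR, BH adjusted p = 0.17 to 0.24), and with the thalamus marker covariate its log2 fold change was -0.07 (edgeR, BH adjusted p = 0.88). The fit with the replicate number as a block also called Pcsk2 (edgeR, BH adjusted p = 0.0098). The labels do not say that equal numbers mark pairs. The related convertase gene Pcsk1, picked after its values were seen, differed by 0.16 ± 0.07 SE on the log2 scale (edgeR, BH adjusted p = 0.44). The granule protein gene Scg2 had 0.12 ± 0.05 SE (edgeR, BH adjusted p = 0.40). Of the 10 genes of this list, 6 were above 0 and 4 below, with a median of 0.05.

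Peptides and enzymes made in the same neurons went both ways, 3 above 0 and 4 below, with a median of -0.02 and 0 of 7 called. Cck, for cholecystokinin, measured 14.5, 10.1 and 14.3 CPM in NS-DADm 1, 2 and 3, against 46.9, 21.2 and 30.4 CPM in WT 1, 2 and 3. Its groups did not overlap, as in 8.93% of tested genes in this direction. The log2 fold change was -1.34 ± 0.37 SE (edgeR, BH adjusted p = 0.33). DESeq2 called Cck (BH adjusted p = 0.018), and no edgeR fit with a library left out did (BH adjusted p = 0.08 to 0.69). The edgeR fit with the replicate number as a block also called Cck (BH adjusted p = 0.00055). WT 1 was highest for Cck and also for the summed thalamus markers. With the thalamus marker covariate the log2 fold change of Cck was 0.32 (edgeR, BH adjusted p = 0.57). That covariate separates the groups, so it cannot be told apart from genotype. A part of thalamus tissue in the Cck values was not tested. Cartpt, for the CART peptide, had -0.13 ± 0.06 SE (edgeR, BH adjusted p = 0.41). Pdyn, for prodynorphin, which vasopressin neurons also make, was picked after its values were seen and differed by 0.21 ± 0.09 SE on the log2 scale (edgeR, BH adjusted p = 0.43), and -0.23 with the covariate.

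In the signalling path of OXTR and AVPR1A, 0 of 7 genes were called and the median log2 fold change was 0.00. Prkca, a protein kinase C, measured 109, 111 and 114 CPM in NS-DADm 1, 2 and 3, against 98.2, 95.7 and 84.4 CPM in WT 1, 2 and 3. Its groups did not overlap, as in 7.86% of tested genes in this direction. Its log2 fold change was 0.26 ± 0.06 SE (edgeR, BH adjusted p = 0.071), and it was called without WT 1, with no count filter and with DESeq2 (BH adjusted p = 0.0041, 0.029 and 0.012). It was not called with any of the other 5 libraries left out (edgeR, BH adjusted p = 0.067 to 0.40), nor with the thalamus marker covariate, where its log2 fold change was 0.28 (edgeR, BH adjusted p = 0.52). The fit with the replicate number as a block also called Prkca (edgeR, BH adjusted p = 0.017). Itpr1, a calcium release channel, had -0.18 ± 0.09 SE (edgeR, BH adjusted p = 0.53). Gnaq and Gna11, which encode the G proteins themselves and were picked after their values were seen, stood at 0.00 each.

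In the signalling path of the CRH receptors, 0 of 13 genes were called, 6 were above 0 and 7 below. The calcium-stimulated adenylyl cyclase genes Adcy8 and Adcy1 had log2 fold changes of -0.25 ± 0.06 and -0.54 ± 0.17 SE (edgeR, BH adjusted p = 0.088 and 0.35). Adcy1 measured 125, 95.3 and 114 CPM in NS-DADm 1, 2 and 3, against 195, 136 and 154 CPM in WT 1, 2 and 3, and had 0.25 with the thalamus marker covariate. Adcy8 was called with DESeq2 and with no count filter (BH adjusted p = 0.039 and 0.042), was not called with any library left out (edgeR, BH adjusted p = 0.061 to 0.37), and had -0.03 with that covariate (edgeR, BH adjusted p = 0.97). The fit with the replicate number as a block called both Adcy1 and Adcy8 (edgeR, BH adjusted p = 1.6e-05 and 0.024). Among 7 genes of receptor desensitisation, 0 were called. Arrb1, a beta-arrestin, had -0.09 ± 0.04 SE and the receptor kinase gene Grk4 had 0.15 ± 0.07 SE.

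Glucocorticoids feed back on Crh through the glucocorticoid receptor, which Nr3c1 encodes. Nr3c1 measured 123, 122 and 129 CPM in NS-DADm 1, 2 and 3, against 129, 141 and 139 CPM in WT 1, 2 and 3, a log2 fold change of -0.13 ± 0.05 SE (edgeR, BH adjusted p = 0.37). Fkbp5, a target gene of this receptor that dampens it, measured 36.3, 35.0 and 35.5 CPM in NS-DADm 1, 2 and 3, against 33.2, 32.8 and 31.7 CPM in WT 1, 2 and 3, a log2 fold change of 0.13 ± 0.06 SE (edgeR, BH adjusted p = 0.44). Neither gene overlapped between the groups when CPM were not rounded, as in 16.8% of tested genes in either direction. Of the 7 genes of this list, 0 were called. Of 10 factors that respond to cAMP and activity, 0 were called, with log2 fold changes of 0.16 ± 0.07 SE for the CREB coactivator gene Crtc2 and -0.52 ± 0.31 SE for Fosb.

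**Figure D5:**
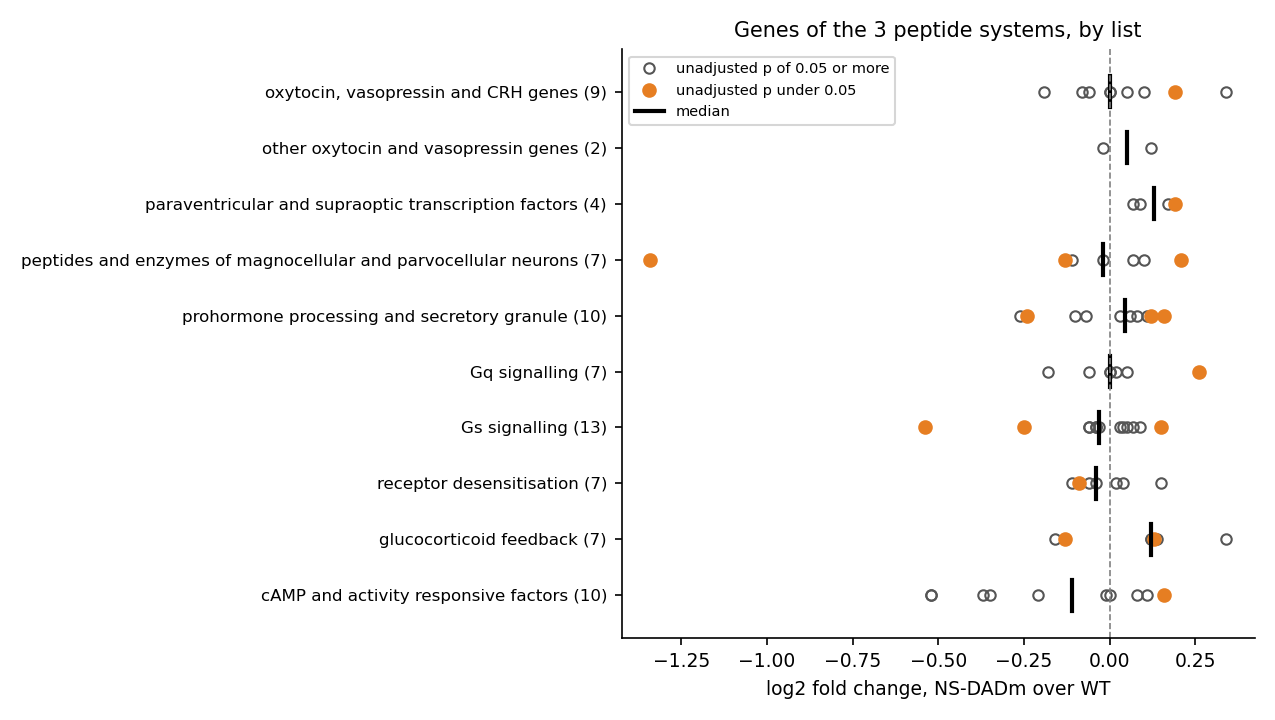
Log2 fold change of NS-DADm over WT (horizontal axis) for the 9 genes and the tested members of each list, 1 point per gene, filled where the unadjusted p was under 0.05, with the list's median as a bar. Medians lie between -0.11 and 0.13, and the points farthest from 0 are Cck at -1.34 and Adcy1 at -0.54.

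Across the 6 libraries, the genes whose log2 CPM most resembled that of Oxt were Pxmp2, Pigv and Mrps23 (Pearson r of 0.988, 0.986 and 0.979 and Spearman rho of 1 each). For Avp they were Lppos, Dnase2a and Fggy (r of 0.975, 0.970 and 0.968, rho of 1, 0.886 and 0.771), and for Crh they were Abcg4, Ilf2 and Tgfbr2 (r of 0.982, 0.979 and 0.977, rho of 1, 0.943 and 1). These are descriptions with no test. With 6 points, 124 of 14525 genes had an r above 0.9 with Oxt, 61 with Avp and 73 with Crh.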

How the data were processed

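Whole-hypothalamus RNA was analysed in 3 NS-DADm and 3 WT libraries from read counts per gene symbol, which the authors deposited without normalization. The submitters' processing notes name TopHat2 2.0.9, HTSeq and the genome mm10. The annotation, strand setting and HTSeq version were not given in the sources used here. Of the 24518 entries per table, 24513 were genes, and 5 classes of unassigned reads were left out. Reads outside genes were 13.3 to 14.8% of the total, ambiguous reads 1.00 to 1.06% and multiply aligned reads 14.3 to 16.5%.

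After filterByExpr and TMM scaling, groups were compared with edgeR 4.0.16 (R 4.3.3) by its quasi-likelihood test, with BH adjustment over the 15894 genes kept and a threshold of 0.05. CPM use TMM-scaled library sizes, intervals are 95%, and standard errors derive from each log2 fold change and its F value. Libraries within a group differed by 3.30 to 9.98 times counting noise (chi-square per degree of freedom), so none was a duplicate. Replicate numbers were not used as pairs in the main fit, since the labels do not say that they are. Same-numbered libraries deviated with correlations of 0.13, 0.09 and -0.03, which cannot exclude pairing. Alternatives changed scaling, filter, test (DESeq2 1.42.0, limma 3.58.1), block, covariate or the libraries included, and plots used matplotlib 3.10.9.

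The 9 genes, the lists and the tests were chosen with earlier results of these data known. Named list genes are the 2 with the smallest p per list, and others are said to be picked after their values were seen. Gene positions and exon lengths are from GENCODE M21 (GRCm38, the build mm10 names) and promoter windows from RefSeq.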

Additional observations from a re-analysis of the deposited data

How the results depend on the processing

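No scaling, filter or test turned the sign of any of the 9 genes, leaving aside Crhr1 and Crhbp at 0.00. The number of the 9 called was 0 in each fit except without WT 1, so 0 to 1 with each library left out in turn. Called genes over the whole table numbered 104 and were 5 to 312 with each library left out, 203 with no count filter, 282 with the DESeq2 Wald test, 584 without WT 1 and NS-DADm 2 together and 13 with the thalamus marker covariate. With the replicate block, the replicate number of the labels as a factor, they numbered 409 and 0 of the 9 genes were called. Whether equal numbers mark pairs is not given by the labels. In the fit with this block Cck, Adcy1, Adcy8, Pcsk2 and Prkca were called. The NS-DADm over WT log2 fold change turned sign with the covariate to -0.16 for Crhr2, -0.61 for Lnpep, -0.05 for Otp and for Grk4, -0.18 for Arnt2, 0.32 for Cck, -0.07 for Scg2, 0.23 for Itpr1, 0.25 for Adcy1, -0.44 for Sim1, -0.23 for Pdyn and -0.22 for Pcsk1, and the cause was not tested. With libraries left out it ranged from -0.04 to 0.16 for Avp, -0.28 to 0.03 for Crh, -0.16 to 0.08 for Cd38 and -0.08 to 0.25 for Lnpep, and it was -0.08 for Lnpep without WT 1 and NS-DADm 2 together. Counts of 55 to 94 reads limit Ucn3, and 3 libraries a group limit all genes.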

Other observations

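Immediate-early genes, which neurons switch on within minutes of activity, followed single libraries. Fos, Fosb, Junb, Egr1 and Nr4a1, a set chosen after its values were seen, were highest in WT 3 and lowest in NS-DADm 2, 5 of 5 in each case. Fos measured 20.9, 6.52 and 14.2 CPM in NS-DADm 1, 2 and 3, against 8.85, 21.1 and 29.4 CPM in WT 1, 2 and 3. The groups overlapped, and its log2 fold change was -0.52 ± 0.65 SE (edgeR, BH adjusted p = 0.86). Fosb was called without WT 1, at a log2 fold change of -0.80 (edgeR, BH adjusted p = 0.037), over a range of 0.037 to 0.91 with each library left out. Scg5, which encodes the chaperone of the PCSK2 enzyme and was likewise chosen after its values were seen, measured 213, 211 and 228 CPM in NS-DADm 1, 2 and 3, against 222, 333 and 224 CPM in WT 1, 2 and 3, so WT 2 alone stood apart.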
